A study of Mus musculus with 6 samples.

Results

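The genes described here are 10 markers of tissue macrophages, chosen by symbol from the count files of the series. They are Csf1r, Cx3cr1, Mrc1, Tyrobp, Fcer1g, C1qa, C1qb, C1qc, Lyz2 and Aif1, and all 10 were found among the 23260 genes listed. The study cultured submandibular glands of ICR mouse embryos at embryonic day 14 (E14 eSMGs) for 6 h, either as control or with AMD3100, an antagonist of the chemokine receptor CXCR4, at 50 µM. Each library was made from the RNA of 1 tube of up to 10 whole glands, so that epithelium, mesenchyme, nerve, vessels, blood and any leukocytes in the gland were measured together, and each group had 3 libraries (replicates). The labels name no mutant allele, and both groups shared the same age, strain and culture. Nothing in the labels says whether the replicates came from separate litters, so that p-values measure the spread between these tubes. The libraries were 3′ mRNA libraries, in which reads come from the end of the transcript, and held between 9051595 and 14393031 counted reads. Of these, between 16.2% (AMD3100 replicate 1) and 32.5% (AMD3100 replicate 2) fell on the gene Rn45s.

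Macrophages enter embryonic organs from the yolk sac and the fetal liver before the bone marrow forms, and settle in the mesenchyme around growing epithelium, where they clear dying cells and produce growth factors. Their survival depends on CSF1R, the receptor tyrosine kinase for CSF1 and IL34. They also carry the fractalkine receptor CX3CR1, the mannose receptor MRC1 (CD206), the adaptors TYROBP and FCER1G, which pass signals from many surface receptors to the kinase SYK, and the actin-bundling protein AIF1 (IBA1). Among their secreted products are lysozyme (LYZ2) and the chains of C1q, the first component of complement.

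None of the 10 markers passed a test for a difference between AMD3100-treated and control eSMGs. In edgeR's quasi-likelihood test over all 13610 genes that passed the filter on low counts, 0 of the 10 members had a Benjamini-Hochberg adjusted p-value under 0.05, against 0% of all genes tested. By the thresholds that the study used, a fold change over 1.5 with an unadjusted p-value under 0.05, 0 of the 10 members passed, against 1.68% of all genes tested (228 genes, 0.397% higher and 1.28% lower in AMD3100). The 54 higher and 174 lower genes became 316 higher and 231 lower without control replicate 3. The study also names a 2-fold threshold, past which there were 168 genes and 0 of the 10 members. The lowest unadjusted edgeR p-value among the members was 0.210, for Lyz2. For 4 of the 10 (C1qa, Lyz2, Aif1 and Cx3cr1) both libraries numbered replicate 3, control and AMD3100 alike, were above the other 4 libraries, as they were for 23.1% of all genes tested. For Csf1r, C1qb, C1qc, Mrc1 and Tyrobp they were neither above nor below all 4. For 3 of the 10 (C1qa, Lyz2 and Aif1) both replicate 3 libraries were over 2 times the highest of the other 4, as they were for 4.21% of all genes tested. This grouping was made after the values were seen, and no test was made of it.

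**Figure D1:**
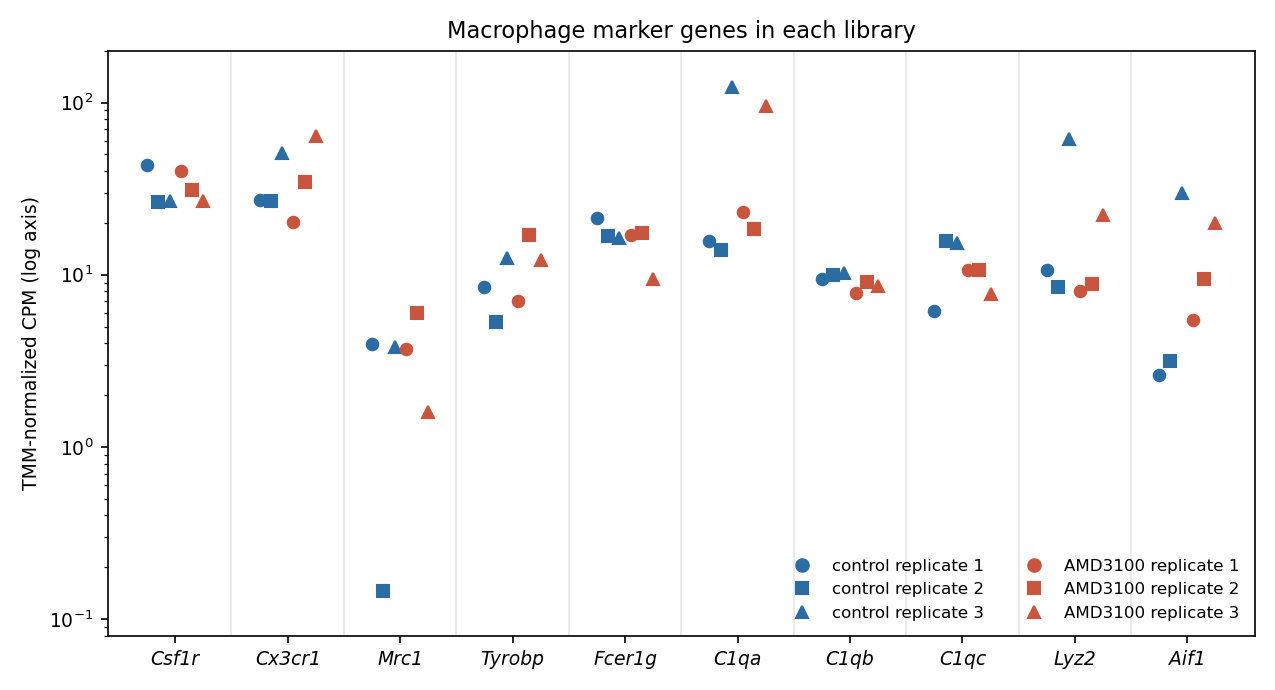
Level of each of the 10 macrophage marker genes (TMM-normalized CPM, log axis) in the 3 control (blue) and 3 AMD3100 (red) libraries, 1 point per library with the replicate number given by the shape. Triangles, the replicate 3 libraries, lie highest for C1qa, Lyz2, Aif1 and Cx3cr1, and the point at the bottom is control replicate 2, which had 2 counts of Mrc1.

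Both replicate 3 libraries stood apart across the whole table. They were above all 4 other libraries for 23.1% of the genes tested and below all 4 for 21.1%. Of the 10 members, 4 were above and 1 (Fcer1g) was below. The labels give no date or batch for them, only the replicate number. In addition, the summed level of 9 skeletal muscle genes was 1341 CPM (counts scaled to the TMM-normalized library size) in control replicate 3 and 1689 CPM in AMD3100 replicate 3, but between 78.3 and 158 CPM in the other 4 libraries. The summed level of 9 mesenchyme genes was 1422 and 1367 CPM in the replicate 3 libraries and between 2948 and 3089 CPM in the others. The most abundant muscle gene was Myog, a transcription factor of muscle differentiation, and the most abundant mesenchyme gene was Col3a1, a fibrillar collagen. The part of these differences in the levels of the macrophage markers was not tested.

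All CPM values are TMM-normalized, log2 fold changes compare AMD3100 with control, and n is 3 libraries per group. The 10 members together took between 1699 and 3516 counts of a library. Their summed level was 149, 127 and 351 CPM in control replicates 1, 2 and 3, and 143, 163 and 268 CPM in the AMD3100 replicates of the same numbers. The mean was 209 ± 123 CPM in control and 191 ± 67 CPM in AMD3100-treated eSMGs (SD, n = 3 each), a ratio of 0.915. The groups overlapped, and the ratio ranged from 0.732 without AMD3100 replicate 3 to 1.39 without control replicate 3, and was 1.11 over replicates 1 and 2 alone. Leaving out C1qa, Lyz2 and Aif1, the sum of the remaining members lay between 101 and 136 CPM in all 6 libraries. It was still highest in the replicate 3 libraries, at 136 CPM in control and 130 CPM in AMD3100. These 3 genes were picked for their high replicate 3 levels after the values were seen. The narrower range therefore follows in part from that choice. In whole glands, fewer macrophages and less RNA per macrophage cannot be told apart.

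The surface receptors are described first. Csf1r lies on mouse chromosome 18 from 61105572 to 61131139 (GRCm38.p6, the assembly of the mm10 build). It stood at 43.2, 26.5 and 26.8 CPM in control and at 39.9, 30.9 and 26.8 CPM in AMD3100-treated eSMGs, in the order of the replicate numbers. Its highest levels were those of replicate 1 in both groups, and the groups overlapped. The means were 32.2 ± 9.52 and 32.5 ± 6.70 CPM (SD, n = 3 each), and the fitted log2 difference was 0.02 with a 95% interval from -0.74 to 0.77 (standard error, SE, of 0.33, edgeR unadjusted p = 0.962, adjusted p = 1.0). In the older NCBIM37 annotation, Hmgxb3 overlaps the 3′ end of Csf1r on the opposite strand. Whether the counting used strand is not stated, so that reads of these genes may not be told apart. Hmgxb3 had between 26.4 and 41.8 CPM.

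Cx3cr1, on chromosome 9 from 120048683 to 120068296, encodes the receptor for fractalkine, by which macrophages are held at cells that display this ligand. Its level was 27.3, 26.7 and 51.1 CPM in control and 20.2, 34.7 and 64.1 CPM in AMD3100-treated eSMGs. The replicate 3 library was the highest in both groups. The log2 fold change was 0.18 (SE 0.47, 95% interval -0.88 to 1.23, edgeR unadjusted p = 0.714, adjusted p = 1.0). Without AMD3100 replicate 3 this was -0.37.

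Mrc1, on chromosome 2 from 14229414 to 14332023, encodes the mannose receptor, an endocytic receptor for glycoproteins that is also found on some endothelial cells. It had the fewest reads of the 10, with 45, 2 and 38 control counts and 64, 65 and 13 with AMD3100. Control replicate 2 was below the floor of 3 counts used here. Its log2 fold change of 0.52 had a standard error of 1.13 (95% interval -2.04 to 3.09, edgeR unadjusted p = 0.655). It was -0.04 without control replicate 2, 0.021 without AMD3100 replicate 2 and 1.30 with limma-voom after quantile normalization.

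The adaptors are described next. Tyrobp (DAP12), on chromosome 7 from 30413782 to 30417582, stood at 8.49, 5.32 and 12.6 CPM in control and at 7.03, 17.1 and 12.2 CPM in AMD3100-treated eSMGs. AMD3100 replicate 2 was the highest library and control replicate 2 the lowest. The fitted log2 change was 0.46 (SE 0.51, 95% interval -0.69 to 1.61, edgeR unadjusted p = 0.391, adjusted p = 1.0). Without AMD3100 replicate 2 it was 0.13, without control replicate 2 0.19, and without control replicate 3 0.81. Fcer1g, the common gamma chain of Fc receptors, lies on chromosome 1 from 171229572 to 171234349. It stood at 21.3, 16.8 and 16.4 CPM in control and at 17.1, 17.5 and 9.46 CPM in AMD3100-treated eSMGs, and both replicate 3 libraries were below the other 4. The log2 fold change was -0.30 (SE 0.38, 95% interval -1.16 to 0.56, edgeR unadjusted p = 0.446, adjusted p = 1.0). Although both adaptors couple to SYK, their levels did not go up and down together, with a Pearson correlation of -0.26 over the 6 libraries.

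The C1q genes form a cluster on chromosome 4 from 136880126 to 136898844, a span of 18719 bases, in the order C1qb, C1qc and C1qa. Their products are the A, B and C chains, which assemble in equal number into C1q, the protein that recognizes immune complexes and dying cells. C1qa, from 136895916 to 136898844, stood at 15.8, 14.0 and 123 CPM in control and at 23.0, 18.5 and 95 CPM in AMD3100-treated eSMGs. The mean of the replicate 3 libraries was 6.11-fold that of the other 4. C1qb, from 136880126 to 136886200, stood at 9.46, 9.91 and 10.3 CPM in control and at 7.83, 9.03 and 8.60 CPM in AMD3100-treated eSMGs. It was the steadiest member, with a coefficient of variation of 9.70% over the 6 libraries, against 99.5% for C1qa. C1qc, from 136889801 to 136892936, stood at 6.13, 15.7 and 15.3 CPM in control and at 10.7, 10.7 and 7.74 CPM in AMD3100-treated eSMGs. In the replicate 3 libraries the mean of C1qc was 1.06-fold and that of C1qb 1.04-fold that of the other 4.

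The balance between the chain genes therefore differed by replicate number. C1qa made up 82.8% of the counts of the C1q genes in control replicate 3 and 85.3% in AMD3100 replicate 3, but between 35.4% and 55.4% in the other 4 libraries. Its count was 11.9 and 11.1 times that of C1qb in the replicate 3 libraries and between 1.41 and 2.94 times in the others. Simulated reads of 50 bases from the last 300 bases of C1qa, C1qb and C1qc matched no other place of the NCBIM37 genome, at 0% shared for each. The Pearson correlation of C1qa with C1qb and with C1qc over the 6 libraries was 0.12 for both.

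**Figure D2:**
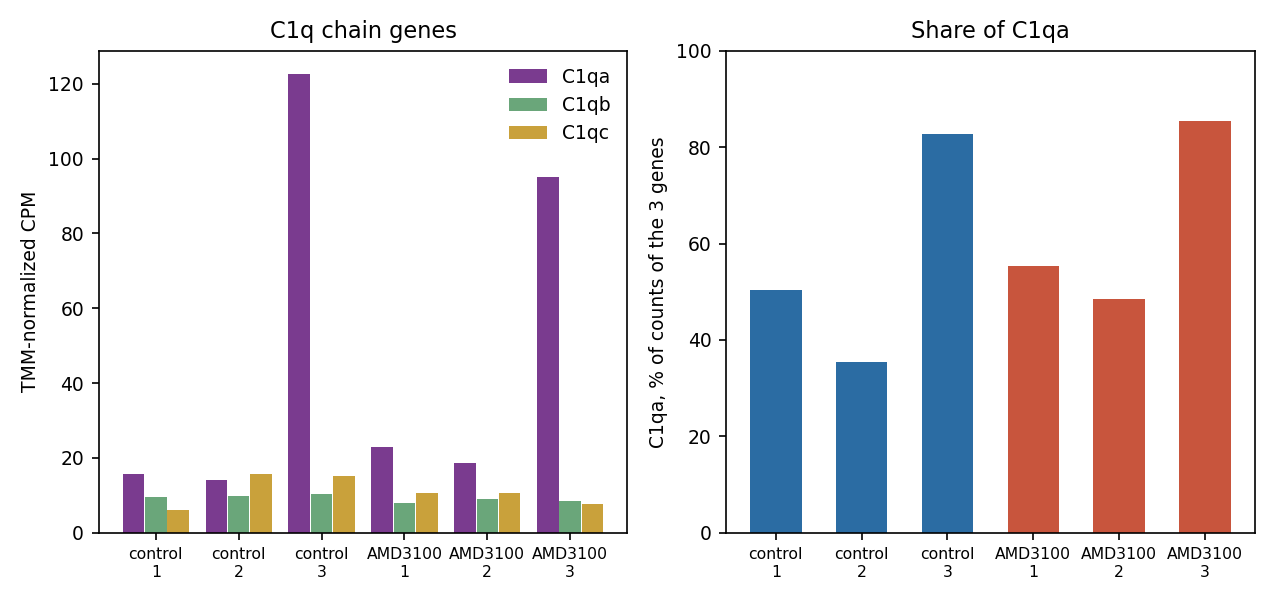
TMM-normalized CPM of C1qa, C1qb and C1qc in each library (left, bars) and the percent of the counts of these genes that fell on C1qa (right, blue for control and red for AMD3100). C1qa reaches 123 and 95 CPM in the replicate 3 libraries, where its share is 82.8% and 85.3%.

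Between the groups, C1qb was the only member whose libraries did not overlap, with all AMD3100 libraries below all control libraries. That is 1 of 10 members, against 7.44% of all genes tested (3.28% higher and 4.17% lower in AMD3100). Its mean was 9.88 ± 0.409 CPM in control and 8.49 ± 0.607 CPM in AMD3100-treated eSMGs (SD, n = 3 each), and it was lower in 3 of 3 pairs of the same replicate number. Its log2 fold change was -0.22 (SE 0.40, 95% interval -1.13 to 0.69, edgeR unadjusted p = 0.6, adjusted p = 1.0), and the exact permutation test (two-sided, 3 against 3 libraries) gave p = 0.1, the smallest it allows. Both this permutation p-value and the 3 of 3 pairs follow from the groups not overlapping, so they are no further support. The fitted log2 change was -0.16 for C1qa (SE 0.91, edgeR unadjusted p = 0.864) and -0.34 for C1qc (SE 0.47, edgeR unadjusted p = 0.485). For C1qa it turned to 1.63 without control replicate 3 (edgeR unadjusted p = 0.0431, adjusted p = 0.997).

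Lyz2 and Aif1 followed C1qa. Lyz2, on chromosome 10 from 117277541 to 117282272, encodes the lysozyme of macrophages and granulocytes, which cleaves bacterial cell walls. It stood at 10.6, 8.52 and 61.8 CPM in control and at 8.06, 8.85 and 22.2 CPM in AMD3100-treated eSMGs. Both replicate 3 libraries were above all 4 others. Its log2 fold change was -1.05 (SE 0.78, 95% interval -2.82 to 0.71, edgeR unadjusted p = 0.210, adjusted p = 1.0). It was 0.46 without control replicate 3, -0.62 with the replicate block and -0.57 with limma-voom after quantile normalization. Of the simulated reads from its 3′ end, 36.4% matched another place of the genome as well, which makes its counts uncertain. Whether that place is the paralogue Lyz1 was not tested. Lyz1, the lysozyme of Paneth cells, had 30 and 18 counts in the replicate 3 libraries and between 8 and 32 in the others.

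Aif1, on chromosome 17 from 35170986 to 35176083, stood at 2.63, 3.13 and 30.0 CPM in control and at 5.47, 9.40 and 19.9 CPM in AMD3100-treated eSMGs. In replicates 1 and 2 both AMD3100 libraries were above both control libraries, but in replicate 3 the order was the reverse. Its log2 fold change was -0.04 (SE 0.93, 95% interval -2.15 to 2.06, edgeR unadjusted p = 0.964, adjusted p = 1.0), and 1.36 over replicates 1 and 2 alone (edgeR unadjusted p = 0.159). With control replicate 3 left out it was 2.01 (edgeR unadjusted p = 0.0212). These counts were 30, 43 and 301 in control and 95, 102 and 162 in AMD3100-treated eSMGs.

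**Figure D3:**
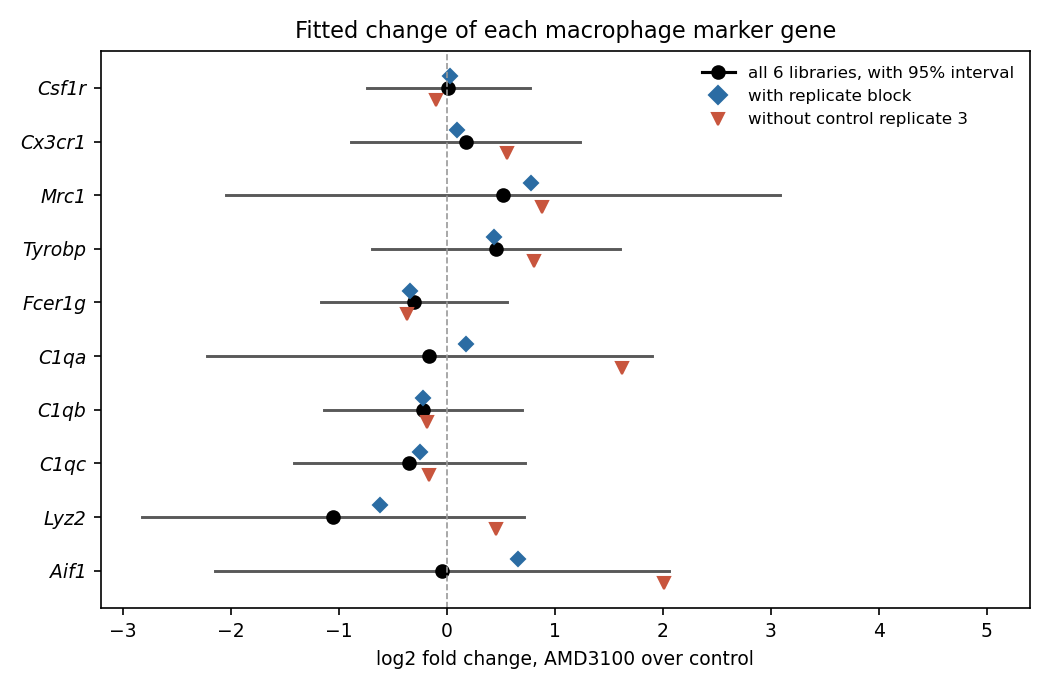
Log2 fold change (AMD3100 over control) for each member, from edgeR with all 6 libraries (black, with the 95% interval), with the replicate number as a block (blue) and without control replicate 3 (red). All 10 intervals hold 0, and the red points of Csf1r, C1qa, Lyz2 and Aif1 lie on the other side of 0 from the black ones.

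Over the 10 members, 4 log2 fold changes were above 0 and 6 below, with a median of -0.10, beside a median of 0.02 over all genes tested. The median size regardless of direction was 0.26, and that of all genes was 0.28. All 10 of the 95% intervals held 0, and the widest, that of Mrc1, ran from -2.04 to 3.09. With the replicate number as a block, 0 of the 10 members and 0.022% of all genes tested had an adjusted p-value under 0.05. The block, which raised the number of genes past the thresholds of the study from 228 to 598 (4.39% of all genes tested), took 0 of the 10 members past them. With replicates 1 and 2 alone, which was tried after the values were seen, 0 of 10 passed, against 613 genes (4.39% of those tested in that fit). Without control replicate 3, 2 of 10 passed (C1qa and Aif1, both higher in AMD3100), against 547 genes (3.84% of those tested in that fit, with 2.22% higher in AMD3100).

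The members varied in different ways across the libraries. The 45 pairs of members had Pearson correlations over the 6 libraries with a median of 0.14, from -0.73 (Cx3cr1 and Fcer1g) to 0.93 (C1qa and Aif1), and 16 of them were below 0. The 5 pairs over 0.8 were all among C1qa, Aif1, Lyz2 and Cx3cr1. Csf1r correlated with Fcer1g at 0.60 and with Cx3cr1 at -0.68. These values describe 6 libraries that share a split by replicate number, and are given without a test. By the rule set for likeness, the genes closest to the mean profile of the members were Gm15645 (Pearson correlation 0.996 over 6 libraries), Polr2g, a subunit of RNA polymerase II (0.992), Cmtr2, Slc35g1, Atp5b, Lhfp, Bok and Eya3 (0.966). The mean profile was highest in control replicate 3 (mean z-score 0.80) but near 0 in AMD3100 replicate 3 (-0.00075). No marker of leukocytes was among these 8 genes. They were picked as the highest correlations among all genes tested over only 6 libraries, so that values this high follow in part from the choice.

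**Figure D4:**
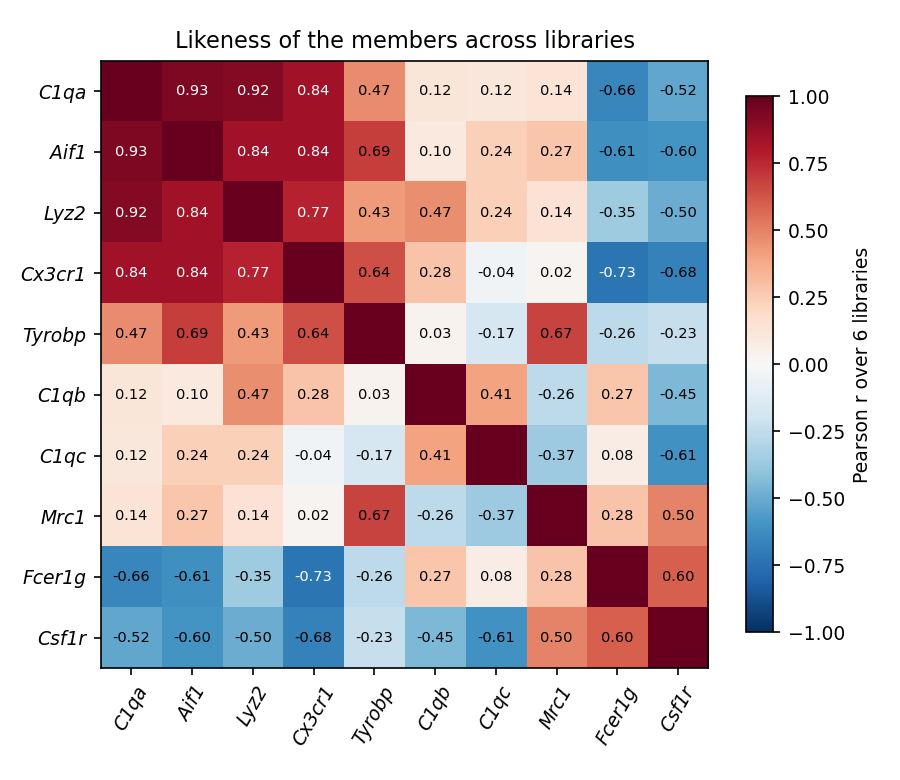
Pearson correlation over the 6 libraries between each pair of members, computed on log2(CPM + 0.5), with red for positive and blue for negative values. C1qa, Aif1, Lyz2 and Cx3cr1 form a block with values from 0.77 to 0.93, whereas Csf1r and Fcer1g have negative values with all 4.

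RefSeq promoter windows on GRCm38.p6 were matched for 7 of the 10 members. The 250 bases before the start site given in that table are shown for C1qb and C1qc, the genes of the C1q cluster that were not high in both replicate 3 libraries, and for Aif1 and Lyz2, which were high in both replicate 3 libraries. Capitals mark GAGGAA or its reverse complement TTCCTC, letters that the binding sites of PU.1, the transcription factor that directs macrophage development, often hold. All sequences read 5′ to 3′ on the strand of the gene, which is the minus strand for each. For C1qc and Aif1 the start site in the promoter table lies inside the gene positions given above, so that the end of each window, with the marked TTCCTC of Aif1, falls within the gene as positioned. The windows lie at chr4:136886201-136886450 (C1qb), chr4:136892915-136893164 (C1qc), chr17:35176053-35176302 (Aif1) and chr10:117282273-117282522 (Lyz2).
C1qb: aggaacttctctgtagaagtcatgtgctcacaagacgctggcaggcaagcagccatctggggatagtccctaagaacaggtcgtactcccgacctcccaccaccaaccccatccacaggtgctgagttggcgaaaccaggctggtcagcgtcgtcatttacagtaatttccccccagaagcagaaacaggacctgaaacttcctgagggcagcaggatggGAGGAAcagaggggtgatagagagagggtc
C1qc: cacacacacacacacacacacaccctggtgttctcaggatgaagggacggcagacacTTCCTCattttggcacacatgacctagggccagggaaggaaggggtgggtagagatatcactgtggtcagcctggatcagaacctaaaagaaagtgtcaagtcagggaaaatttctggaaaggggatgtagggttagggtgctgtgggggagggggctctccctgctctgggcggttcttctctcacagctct
Aif1: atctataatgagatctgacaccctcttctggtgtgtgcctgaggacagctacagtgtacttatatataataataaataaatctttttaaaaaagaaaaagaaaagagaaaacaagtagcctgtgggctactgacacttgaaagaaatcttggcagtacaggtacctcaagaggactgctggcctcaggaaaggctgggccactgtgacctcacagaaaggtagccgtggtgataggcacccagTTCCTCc
Lyz2: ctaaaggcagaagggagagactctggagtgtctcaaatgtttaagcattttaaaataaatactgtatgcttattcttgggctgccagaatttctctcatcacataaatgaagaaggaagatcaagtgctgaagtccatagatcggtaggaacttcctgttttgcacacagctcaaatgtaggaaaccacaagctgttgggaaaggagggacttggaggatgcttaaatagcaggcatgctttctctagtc

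GAGGAA, on either strand, was found in 4 of the 7 windows (C1qb, C1qc, Aif1 and Mrc1) and in 23.3% of all 32851 promoter windows of the same length. The longer GAGGAAGT, which contains it, was found in C1qc alone and in 2.44% of all windows. The letters TTGCNNAA, of the kind that C/EBP factors bind, TGANTCA, of the kind that AP-1 binds, and TATAAA were found in none of the 7, and in 9.56%, 6.75% and 12.4% of all windows. A match of letters is a description and not a binding site.

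Of 8 transcription factors of macrophage development, 8 could be tested, 0 passed the thresholds of the study in either direction, and the median log2 fold change was -0.11. Spi1, which encodes PU.1, had 32, 86 and 46 control counts and 91, 60 and 20 with AMD3100. Maf and Cebpa, among the most abundant of the list, are also expressed outside the myeloid lineage. Maf stood at means of 94.4 and 89.3 CPM in control and AMD3100-treated eSMGs. Cebpa stood at 29.3 and 25.5 CPM.

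Other markers of macrophages were present unevenly. Of 24 listed, 16 could be tested, with 13 log2 fold changes above 0, a median of 0.32 and 0 past the thresholds. The most abundant were Apoe, Cbr2 and Stab1, which are not restricted to macrophages. Cd68, a lysosomal glycoprotein, had 131, 86 and 253 control counts and 159, 171 and 171 with AMD3100. Adgre1, which encodes F4/80, a surface marker of mouse macrophages, had 37, 73 and 16 control counts and 34, 82 and 15 with AMD3100. It was thus lowest in the replicate 3 libraries, in which C1qa and Lyz2 were highest. Trem2, a receptor that works through TYROBP, had 2, 0 and 98 control counts and 51, 47 and 73 with AMD3100. Its replicate 3 libraries were the highest in both groups.

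Some genes that define subsets were near or at 0. Timd4, a phagocytic receptor of fetal-derived resident macrophages, and Gpr34 had 0 counts in all 6 libraries, where 3 counts would stand at between 0.208 and 0.331 CPM of the library total. Cd163, of perivascular and scavenging macrophages, had 3 counts in AMD3100 replicate 3 and 0 in the others, and P2ry12, of microglia, had 3 counts at most. Tmem119, a microglia marker that is also expressed in skeletal tissue, had between 438 and 1865 counts. The broad markers were therefore measured, whereas Timd4 was not detected at this depth. As for leukocytes in general, all 12 listed genes could be tested, 0 passed, and the median log2 fold change was -0.23. Ptprc, which encodes CD45, had 129, 89 and 37 control counts and 76, 82 and 32 with AMD3100, lowest in replicate 3. Laptm5, a lysosomal protein of hematopoietic cells, had 172, 182 and 503 control counts and 244, 122 and 460 with AMD3100, highest in replicate 3. Cyba, a subunit of the phagocyte oxidase that other cells express too, was the most abundant, before Laptm5 and Arhgdib.

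Apart from Cd47, the listed ligands for these receptors were at low levels. Of 8 listed genes 5 could be tested and 0 passed, with a median log2 fold change of -0.20. Csf1, the main ligand of CSF1R, had 45, 26 and 59 control counts and 26, 24 and 25 with AMD3100, with control replicate 2 at the level of the AMD3100 libraries. Il34, the other ligand, had 20, 76 and 24 control counts and 127, 25 and 43 with AMD3100. Cx3cl1, the ligand of CX3CR1, had 89, 72 and 69 control counts and 72, 7 and 45 with AMD3100. The most abundant was Cd47, the signal that restrains phagocytosis, at means of 31.4 and 39.5 CPM in control and AMD3100-treated eSMGs. Next came Cd200, at 6.85 and 5.98 CPM, and Cx3cl1, at 6.64 and 3.44 CPM.

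Receptors and kinases around TYROBP and FCER1G numbered 15 listed and 12 tested genes, of which 0 passed, with a median log2 fold change of -0.19. For 7 of the 12, both replicate 3 libraries were above all 4 others, beside 23.1% of all genes tested. The same held for 10 of the 21 genes for phagocytosis and lysosomes and 8 of the 9 skeletal muscle genes. It held for 4 of the 16 other macrophage markers tested and 4 of the 12 complement genes tested. The counts were 3 of the 12 leukocyte genes, 1 of the 8 transcription factors of macrophage development and 0 of the 11 epithelial genes. Sirpa, an inhibitory receptor that binds CD47 and is also found on neurons and muscle, had 368, 456 and 1253 control counts and 436, 460 and 671 with AMD3100. Fcgr3, an activating Fc receptor that needs FCER1G, had 0, 59 and 201 control counts and 19, 72 and 116 with AMD3100. Both were highest in the replicate 3 libraries, and with Lyn they were the most abundant. Lyn, a kinase of the SRC family, had 65, 33 and 30 control counts and 82, 244 and 40 with AMD3100. Syk was at 0 counts in control replicate 1 and in AMD3100 replicate 2, although Tyrobp and Fcer1g had reads in every library.

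Among 16 complement genes other than C1q, 15 were in the files, 12 were tested and 0 passed, with 10 log2 fold changes below 0 and a median of -0.42. C3, the central component, had 0, 0 and 109 control counts and 37, 14 and 142 with AMD3100, and was highest in replicate 3 as C1qa was. The most abundant was C1qbp, a mitochondrial protein despite its name, at means of 219 and 153 CPM in control and AMD3100-treated eSMGs. Cd59a, an inhibitor of the membrane attack complex of which 45.5% of simulated reads matched elsewhere, followed at 36.7 and 29.3 CPM, and Serping1, the C1 inhibitor, at 32.0 and 29.7 CPM. C3ar1, a receptor for a fragment of C3 that macrophages carry, had 196, 91 and 168 control counts and 241, 98 and 143 with AMD3100, and its groups overlapped.

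Of 21 genes for phagocytosis and lysosomes, all of them tested, 1 passed the thresholds of the study, with a lower level in AMD3100, as did 1.28% of all genes tested. This was Gas6, the bridge by which the receptors AXL and MERTK bind dying cells. It had 103, 250 and 421 control counts and 51, 68 and 52 with AMD3100, or 23.1 ± 17.0 CPM against 5.2 ± 1.96 CPM (SD, n = 3 each), and the groups did not overlap, as for 7.44% of all genes tested. The fitted log2 change was -2.16 (SE 0.62, edgeR unadjusted p = 0.00711, adjusted p = 1.0), with a range of -2.55 to -1.39 as single libraries were left out. The replicate block gave -1.95 (adjusted p = 0.229 in edgeR). The median log2 fold change of the list was 0.06. The most abundant genes, Npc2, Mfge8 and Ctsd, are expressed by most cells, and stood at means of 514 and 547, 411 and 537, and 449 and 466 CPM in control and AMD3100-treated eSMGs.

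MHC class II genes were at low levels. Cd74, the invariant chain, had 18 and 14 counts in the replicate 3 libraries and 1 count at most in the others. The most abundant, H2-DMa, stood at means of 3.80 and 5.44 CPM in control and AMD3100-treated eSMGs, H2-DMb1 at 1.81 and 2.52 CPM, and H2-Eb1 at 1.94 and 2.30 CPM. Of 6 genes 3 could be tested and 0 passed, with a median log2 fold change of 0.47.

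Several members are shared with other blood cells, so markers of these were examined. Of 12 neutrophil genes, 11 were in the files and 6 were tested, with 0 past the thresholds and a median log2 fold change of 0.20. Their summed level was 19.1, 32.3 and 25.8 CPM in control and 48.7, 36.6 and 11.7 CPM in AMD3100-treated eSMGs. It was not highest in the replicate 3 libraries. Whether neutrophils contributed to the levels of Lyz2 was not tested. Elane was at 0 in all libraries, and the most abundant were S100a9, S100a8 and Lcn2, which stood at means of 8.71 and 10.4, 6.70 and 12.1, and 3.06 and 2.51 CPM. Of 9 mast cell genes, another source of Fcer1g, 3 were tested and 0 passed, with a median log2 fold change of 0.61. Fcer1a was at 0 in all libraries, Ms4a2 had 2 counts at most, and Kit, which gland epithelium also expresses, was the most abundant, before Hdc and Cpa3. The summed level of the mast cell list was 5.08, 17.4 and 6.58 CPM in control and 16.6, 13.5 and 4.91 CPM in AMD3100-treated eSMGs.

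Of 7 monocyte genes 4 were tested and 0 passed, with a median log2 fold change of -0.49. Ccr2 had 16 counts at most, and the most abundant, Vcan and Fn1, are products of the mesenchyme. Plac8 stood at 12.6 and 5.4 CPM in the replicate 3 libraries and between 0.184 and 3.06 CPM in the others, so that both were above all 4. Of 9 genes of natural killer and T cells 2 were tested, Ncr1 and Cd3g were at 0 in all libraries, and the most abundant were Rora, which is not restricted to lymphocytes, Il7r and Cd3e. Of 6 B cell genes 1 was tested, and Ms4a1 and Pax5 were at 0 in all libraries. Vpreb1, the most abundant of that list, had 0, 0 and 12 control counts and 31, 34 and 44 with AMD3100 (edgeR unadjusted p = 0.109, adjusted p = 1.0), and 36.4% of its simulated reads were shared with another place.

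Tissue markers were examined in the same way. The 8 endothelial genes tested of 11 had a median log2 fold change of -0.62, with Pdpn, Kdr and Pecam1 the most abundant, and the 8 erythroid genes of 9 had -0.39, with Hba-a1, Hbb-b1 and Hbb-y the most abundant, of which Hba-a1 had reads (90% of those simulated) shared with near-identical copies. The 9 skeletal muscle genes (Myog, Tnnc2 and Mylpf the most abundant) had a median of 0.40, the 11 epithelial genes 0.20 with Krt15, Cdh1 and Sox9 the most abundant, and the 8 mesenchyme genes tested of 9 (Col3a1, Col1a1 and Dcn the most abundant) had -0.02. For each of these lists 0 genes passed the thresholds. Of the 8 nerve and Schwann cell genes 1 passed, beside 1.28% of all genes tested that were lower in AMD3100. This was Fabp7, a fatty acid binding protein of glial precursors. It had 138, 232 and 473 control counts and 96, 59 and 87 with AMD3100, and its fitted log2 difference was -1.82 (SE 0.58, edgeR unadjusted p = 0.0126, adjusted p = 1.0). It was -1.0 without control replicate 3 (edgeR unadjusted p = 0.0948). The median of that list was 0.53, with Tubb3, a neuronal tubulin with 45.5% of simulated reads shared, the most abundant and Sox2 also among the abundant ones.

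**Figure D5:**
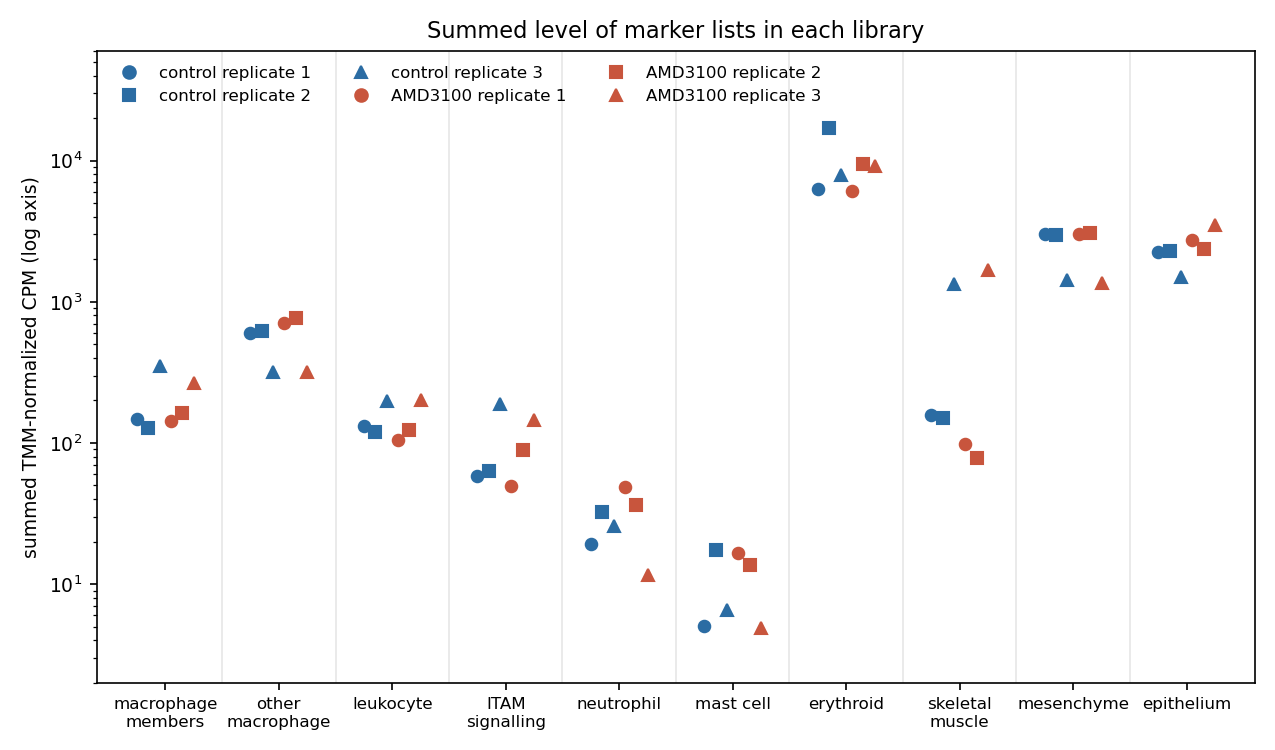
Summed TMM-normalized CPM of 10 marker lists (log axis) in each library, with blue for control, red for AMD3100 and the replicate number given by the shape. The triangles of replicate 3 lie above the other libraries for the macrophage members, the leukocyte genes, the genes around TYROBP and FCER1G (ITAM signalling) and skeletal muscle, and below them for mesenchyme and for the other macrophage markers.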

How the data were processed

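eSMG RNA from 3 control tubes and 3 tubes treated with AMD3100 was made into 3′ mRNA libraries and read as single reads of 50 bp. For each library the authors deposited a table of raw counts by gene symbol. The submitters' processing notes name Bowtie2, edgeR and mm10, without versions or roles, and the annotation and the counting are not given in the sources used here. No molecular identifiers are mentioned, so floors (3 counts) cover counting error only. Of 23282 lines per library, 22 that repeated a symbol with the same counts were left out. Groups and replicate numbers came from the labels. The members and the gene lists were chosen with earlier results of these data known.

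Counts were fitted with edgeR 4.0.16 in R 4.3.3 (TMM, filterByExpr, glmQLFit, glmQLFTest, Benjamini-Hochberg adjustment over 13610 genes), with group as the only term. Each standard error was the coefficient divided by the root of F, and intervals came from the total degrees of freedom. The equal-variance test of the study, which followed quantile normalization, was not used. Across genes, deviations from the group mean of libraries with the same number correlated at 0.241, 0.220 and 0.646. All were over 0.1, the bound used, so the replicate block was fitted as for paired libraries. Replicates 1 and 2 were not told apart by this check, since control 2 with AMD3100 1 gave 0.259 and control 1 with AMD3100 2 gave 0.182. Results were refitted with each library left out, with the replicate block, with DESeq2 1.42.0, with limma-voom (limma 3.58.1) on quantile-normalized values, with upper quartile scaling, with robust dispersions, without the filter or with a minimum of 10 counts throughout, and with a 2-fold threshold. Replicates 1 and 2 alone, and the sums without C1qa and without C1qa, Lyz2 and Aif1, were added after the values were seen.

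Named were the members, the genes of each list that passed a fold change of 1.5 with an unadjusted p-value under 0.05, the most abundant genes of the lists, markers at 0, and the 8 genes most like the mean z-score of the members. Other genes (Cd68, Adgre1, Trem2, Spi1, Ptprc, Timd4, Gpr34, Cd163, P2ry12, Tmem119, the ligands of low level, Cd74, Ccr2, Ms4a2, Syk, C3, C3ar1, Plac8, Lyz1 and Hmgxb3) were chosen after their values were seen. Gene positions and promoters are those of RefSeq on GRCm38.p6. Reads of 50 bases every 25 bases from the last 300 bases of transcripts of GENCODE vM1 were aligned to NCBIM37 with minimap2 2.31-r1302, which is not the build the authors used. Simulated data served to test the fits. Some genes that the naming rule picks are not reported here.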

Additional observations from a re-analysis of the deposited data

How the results depend on the processing

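Over the settings planned and added, 0 members had an adjusted p-value under 0.05. In all genes this count was 0 with edgeR, 5 with DESeq2 and 3 with the replicate block. The genes past the 1.5-fold and unadjusted 0.05 thresholds were 228, 598 with the replicate block, 613 with replicates 1 and 2 only and between 163 and 547 with each library left out (547 without control replicate 3, 451 without AMD3100 replicate 3). Of the 228, 54 were higher and 174 lower in AMD3100, 203 and 395 with the block, 267 and 346 with replicates 1 and 2 only, and 316 and 231 without control replicate 3. The replicate block changed no call of a member. The members past these thresholds were 0, and between 0 and 2 with each library left out. The median of their log2 changes was -0.10, from -0.23 to 0.51 as single libraries were left out (0.51 without control replicate 3), 0.05 with limma-voom and 0.06 with the block.

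Directions turned for 6 members. The log2 fold change of C1qa was 0.19 with limma-voom after quantile normalization, 0.18 with the replicate block, 0.48 with replicates 1 and 2 only, and with a library left out 1.63 (control replicate 3), 0.16 (AMD3100 replicate 1) and 0.22 (AMD3100 replicate 2), with a lowest value of -1.31. That of Aif1 was 0.68, 0.66, 1.36, 2.01, 0.30 and 0.09 in the same settings, with a lowest value of -0.70. Csf1r turned to -0.11 without control replicate 2, -0.09 without control replicate 3 and -0.16 without AMD3100 replicate 1, and was 0.28 at most. With single libraries left out, Lyz2 ranged from -1.69 to 0.46 (without control replicate 3), Cx3cr1 from -0.37 (without AMD3100 replicate 3) to 0.56, and Mrc1 from -0.040 (without control replicate 2) to 0.93. C1qb, C1qc, Tyrobp and Fcer1g kept their direction in every setting run. Mrc1 could not be fitted with at least 10 counts in every library. The causes were not tested. With 3 libraries per group and a biological coefficient of variation of 0.579 in the fit without the block, small changes may have been missed. The smallest detectable change was not computed.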
